A study of Mus musculus with 8 samples.

Results

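The immunity-related GTPases (IRG proteins) are a family of interferon-inducible GTP-binding proteins, here taken as the 8 mouse genes Iigp1, Irgm1, Irgm2, Igtp, Tgtp1, Tgtp2, Ifi47 and Gm12250. They were found by gene name, and all 8 have a row among the 55367 genes of the deposited count table. The cells were Neuro2a, an established mouse neuroblastoma line, transfected for CRISPR activation (CRISPRa), and the series title names SCN2A as the gene of interest. In CRISPRa a Cas9 that cannot cut, here sadCas9 from Staphylococcus aureus, is fused to the activator VP64 and is led to its site by a single guide RNA (sgRNA). In the CRISPRa group 750 ng of plasmid for the sgRNA was given along with 750 ng for sadCas9-VP64. The no-sgRNA cultures are titled as treated with VP64 without sgRNA, so both groups carried the activator, and the amount for the controls is not given in the labels. The titles do not say whether another plasmid took the place of the sgRNA plasmid in the controls. Both groups were grown in the same serum-containing medium. The time between transfection and harvest is not given in the sources used here. Counts were analysed for 6 of the 8 samples in the labels, numbered 2, 3 and 5 in the CRISPRa group and 2, 3 and 4 in the no-sgRNA group, and values below follow that order. Nothing in the labels says that replicates were separate cultures on separate days, so p-values measure the spread between these samples, which may be technical.

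IRG proteins are part of cell-autonomous immunity, the defence that a single infected cell mounts by itself. Effector members gather on the vacuole membranes of intracellular parasites and bacteria and disrupt them, while the regulator members Irgm1, Irgm2 and Igtp (Irgm3) sit on the cell's own membranes and hold the effectors inactive there. In mouse cells IRG genes are induced most strongly by interferon gamma, through gamma-activated sites (GAS) in promoters, and also by type I interferon, through interferon-stimulated response elements (ISRE), where STAT2 and IRF9 act.

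The division between regulators and effectors is visible in the nucleotide-binding loop that contacts GTP. Regulators have a methionine codon where effectors have the lysine codon typical of GTPases, and for this reason they are called GMS and GKS proteins. The codon was read in frame from the longest open reading frame of each gene's GENCODE M21 transcripts, and 45 bases around it are shown 5′ to 3′ to set the classes side by side. Capitals mark the deciding codon.
Irgm1: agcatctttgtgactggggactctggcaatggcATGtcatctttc
Irgm2: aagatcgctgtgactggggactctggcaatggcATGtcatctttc
Igtp: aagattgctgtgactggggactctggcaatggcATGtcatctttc
Tgtp2: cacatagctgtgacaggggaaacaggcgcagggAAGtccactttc
Ifi47: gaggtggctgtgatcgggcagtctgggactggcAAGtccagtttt
Gm12250: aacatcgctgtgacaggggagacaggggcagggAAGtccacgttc
The codon was ATG in all 3 regulators and AAG in all 5 effectors, Tgtp1 and Iigp1 included. Tgtp1 has the same 45 bases as Tgtp2. The open reading frames hold between 407 and 423 codons, so the members differ little in coding length.

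The promoters were examined because most members differed in the same direction between the groups. Promoter sequences at RefSeq starts (GRCm38.p6) were at hand for 7 of the 8 members, and that of Iigp1 was missing from the sources used here. The 250 bases before each start were searched for GAS letters, TTCNNNGAA, which read the same on both strands, and for ISRE letters, GAAA and GAAA with 2 bases of any kind between them, or TTTC and TTTC in that spacing for the other strand. ISRE letters occur in 6 of the 7 members and in 2.98% of all 32841 promoters of that length, and GAS letters in 5 of the 7 and in 7.02% of all promoters. The letters are not particular to IRG genes. Of 5 promoters of guanylate-binding proteins, a related GTPase family, 4 hold ISRE letters and 2 hold GAS letters. Of 5 promoters of further IRG-related genes, 1 holds ISRE letters and 1 holds GAS letters. The stretches that hold them are shown 5′ to 3′ in the direction of the gene, with matched letters in capitals. They are chr11:58214892-58214932 on the plus strand for Irgm2, chr11:58199501-58199541 on the plus strand for Igtp, chr11:48992304-48992344 on the minus strand for Tgtp1, chr11:49064263-49064303 on the minus strand for Tgtp2, chr11:48871428-48871457 on the minus strand for Irgm1 and chr11:58183742-58183816 on the plus strand for Gm12250.
Irgm2: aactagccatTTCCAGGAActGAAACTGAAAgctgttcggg
Igtp: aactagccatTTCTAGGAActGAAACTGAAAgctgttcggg
Tgtp1: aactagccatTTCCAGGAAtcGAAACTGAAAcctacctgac
Tgtp2: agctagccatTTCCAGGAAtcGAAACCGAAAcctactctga
Irgm1: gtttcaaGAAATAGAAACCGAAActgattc
Gm12250: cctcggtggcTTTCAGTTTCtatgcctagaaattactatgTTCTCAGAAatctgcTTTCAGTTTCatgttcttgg
In Irgm2, Igtp, Tgtp1 and Tgtp2 the GAS letters are followed by 2 bases and then the ISRE letters. That joined arrangement was searched for after these sequences had been seen. On either strand it occurs in 5 of the 32841 promoters, those 4 members and Gm12185, a further gene of the chromosome 11 group. These promoters resemble each other beyond the motifs, as the shared bases before the GAS letters show. Irgm1 has 2 overlapping ISRE matches and no GAS match, and these bases lie in an exon of a non-coding Irgm1 transcript of GENCODE. Gm12250 has ISRE letters on the opposite strand on either side of its GAS letters. Ifi47 has neither set of letters in this window. The counted rows of Irgm2 and Tgtp1 begin farther upstream, at 58199618 and 48994172, than their RefSeq starts at 58214977 and 48992246. The stretches shown for these genes therefore lie within the spans of the counted rows. A match is a description of letters and not evidence of a bound factor.

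**Figure D1:**
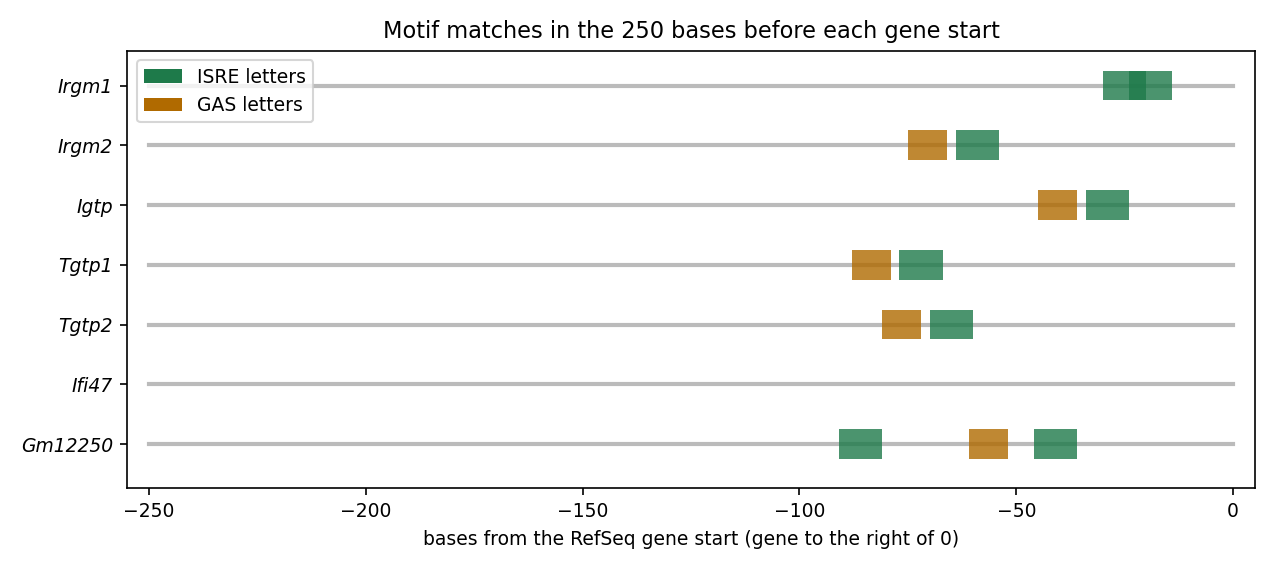
Motif matches in the 250 bases before the RefSeq start of 7 members. The x axis is the distance from the start in bases, green blocks are ISRE letters and brown blocks are GAS letters on either strand. In Irgm2, Igtp, Tgtp1 and Tgtp2 a GAS block stands 2 bases before an ISRE block, and Ifi47 has no block.

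The full 250 bases before the Igtp start are given as longer context for that arrangement, with the matched letters in capitals (chr11:58199306-58199555, plus strand, GRCm38.p6).
Igtp: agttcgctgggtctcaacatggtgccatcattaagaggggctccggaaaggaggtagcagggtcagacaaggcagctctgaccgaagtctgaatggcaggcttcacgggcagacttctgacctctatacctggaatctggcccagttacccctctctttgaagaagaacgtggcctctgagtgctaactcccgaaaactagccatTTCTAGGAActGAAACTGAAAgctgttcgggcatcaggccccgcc

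Libraries held between 29739422 and 34248514 counts, with TMM scaling factors from 0.978 to 1.01. CRISPRa replicate 5 stood apart from CRISPRa replicates 2 and 3: the chi-square per degree of freedom over genes was 4.73 between the latter and 15.7 to 17.1 between each of them and replicate 5. No-sgRNA replicate 4 stood apart in the same way, at 14.1 to 16.6 against 5.98. Scn2a, the gene in the title, had 267, 279 and 231 counts with CRISPRa and 190, 193 and 130 without the guide (log2 fold change 0.48, SE 0.19, edgeR adjusted p = 0.0899). Of 9 markers of sympathetic neuroblasts, 8 passed the filter on low counts, and the remaining marker, Nefm, had at most 6 counts in a library. Hand2 (log2 fold change -0.43, edgeR adjusted p = 0.000507) and Phox2a (-0.69, edgeR adjusted p = 0.00204) were lower with CRISPRa, Tubb3 was higher (0.20, edgeR adjusted p = 0.0485), and the 9 markers summed to 1071 to 1297 CPM with CRISPRa and 1329 to 1479 CPM without the guide. The macrophage markers Adgre1, Itgam and Lyz2 and the T and NK cell markers Cd3e, Prf1 and Klrb1c were at 0 in all 6 libraries. The macrophage marker Tyrobp had 11, 8 and 15 counts with CRISPRa and 0, 6 and 1 without the guide, with no overlap, but did not pass the filter. Aif1 had 3, 0 and 3 against 14, 0 and 4, and Csf1r and Ptprc had at most 6 counts in a library. Cd68, Cd14 and Fcgr1 were tested and not called (edgeR adjusted p = 0.652, 0.905 and 0.525). The summed level of the 10 macrophage markers was 2.39 to 3.14 CPM (counts per 1000000 counts of the TMM-scaled library) with CRISPRa and 2.09 to 3.27 CPM without the guide, and that of the 7 T and NK cell markers was at most 0.393 CPM. The 5 fibroblast markers summed to 103 to 111 CPM with CRISPRa and 78.8 to 94.6 CPM without the guide. Pdgfrb made up most of that sum and was higher (log2 fold change 0.25, edgeR adjusted p = 0.0376). Col1a1 (0.75, edgeR adjusted p = 0.435) and Dcn (-0.50, edgeR adjusted p = 0.465) were not called. Lum had at most 4 counts in a library, and Col3a1 was at 0. The 4 endothelial markers summed to 8.42 to 11.6 CPM and 10.1 to 13.7 CPM. Pecam1 made up most of that sum and was lower in every CRISPRa library than in any control, but was not called (log2 fold change -0.47, edgeR adjusted p = 0.103). Cdh5 was higher (log2 fold change 2.04, edgeR adjusted p = 0.0105), Tek was not called (0.49, edgeR adjusted p = 0.674), and Kdr was at 0. The part of these marker differences in the results on IRG genes was not tested.

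The first comparison asked whether IRG transcripts differed between cultures with and without the guide. The 8 genes together took 0.0410% ± 0.00377 of all counts with CRISPRa and 0.00179% ± 0.000233 without the guide (SD, n = 3), a 22.9-fold ratio of means. Irgm1, Irgm2 and Igtp supplied between 96.7% and 98.3% of these counts in the CRISPRa libraries and between 98.7% and 99.2% in the no-sgRNA libraries. Of the 8 genes, 7 passed the filter, and each of the 7 was higher with CRISPRa at an edgeR quasi-likelihood Benjamini-Hochberg adjusted p under 0.05. Over all 15117 tested genes, 9.47% were called higher and 18.7% were called in either direction. For the same 7 genes all CRISPRa libraries exceeded all no-sgRNA libraries, which held for 17.7% of tested genes. Only 3 of them, Irgm1, Irgm2 and Igtp, had a mean of at least 10 counts in the no-sgRNA libraries. Tgtp2, Ifi47, Iigp1 and Gm12250 could pass the filter only through the CRISPRa group, so their calls are no separate support. An exact permutation test, two-sided and on mean CPM, gave p = 0.1 for each of the 7 genes, the smallest p that 3 libraries against 3 allow. In bulk RNA, more responding cells and more RNA per responding cell cannot be told apart.

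**Figure D2:**
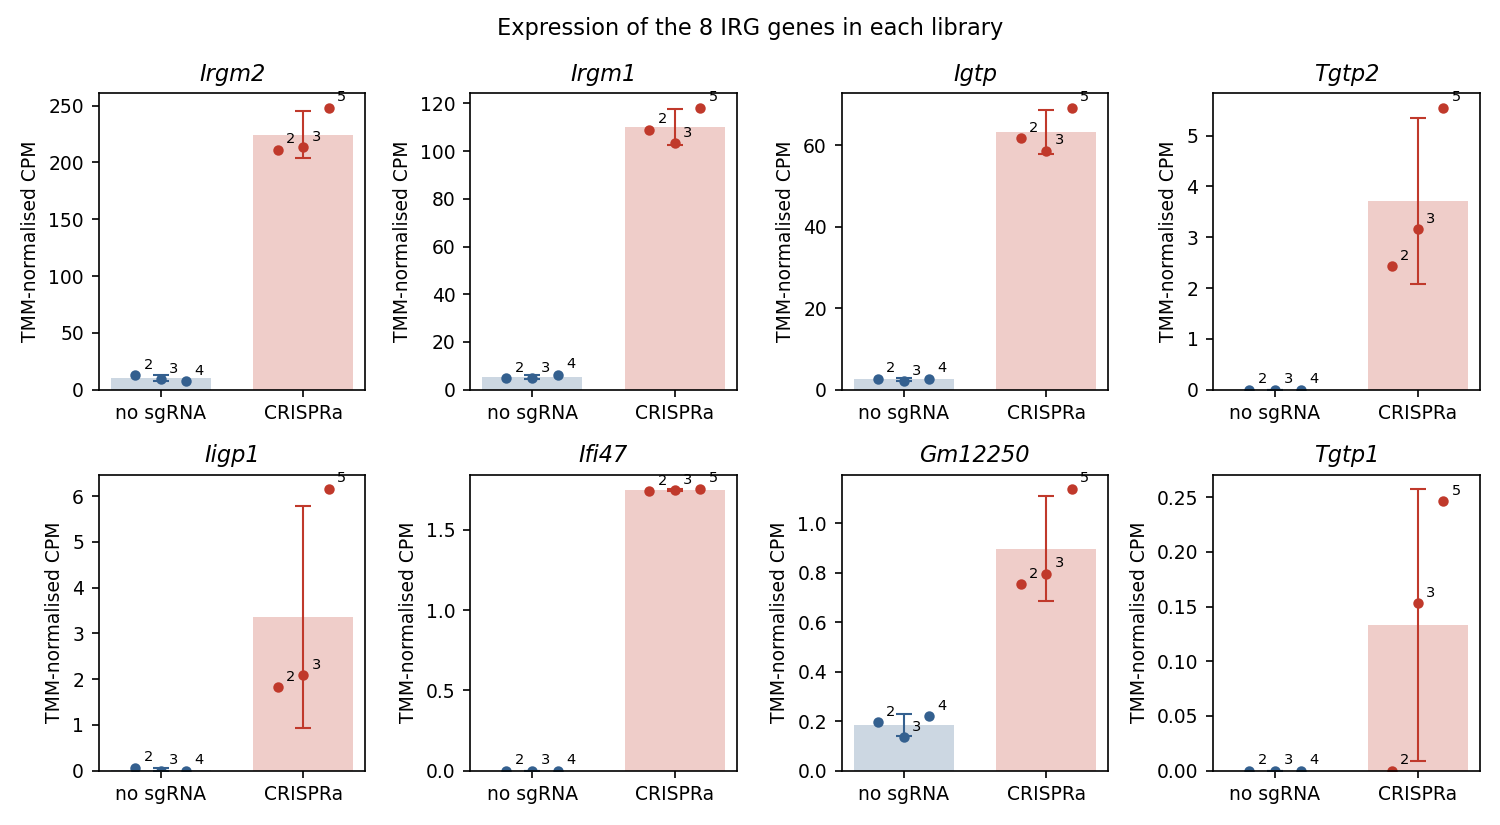
TMM-normalised CPM of each IRG gene by library, on linear axes that start at 0 and differ between panels. Bars are group means with SD over 3 libraries, and points carry the replicate number. In 7 panels all CRISPRa points lie above all no-sgRNA points, and the exception is Tgtp1, where CRISPRa replicate 2 is at 0.

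The regulators were the most abundant members in both groups. Irgm2 (chromosome 11, 58199618 to 58222782, plus strand, protein coding, coordinates of all genes on GRCm38), a regulator of the Golgi and other internal membranes, had 7282, 6968 and 8053 counts with CRISPRa. The no-sgRNA libraries gave 390, 280 and 242. The groups were far apart, and among the controls replicate 2 was highest. On the CPM scale the mean rose from 9.95 ± 2.61 to 224 ± 20.7 (SD, n = 3), or 4.50 on the log2 scale with an SE of 0.14 (adjusted p = 2.49e-12 by edgeR) and 22.6-fold in ratio.

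Irgm1 (chromosome 11, 48861968 to 48871683, minus strand, protein coding), known for its part in mycobacterial resistance and in autophagy and mitochondrial quality control, had 3754, 3371 and 3835 counts with CRISPRa. Without the guide it had 144, 146 and 199 counts. The 3 CRISPRa libraries lay close together, and among the controls replicate 4 was highest. The mean rose from 5.31 ± 0.854 to 110 ± 7.56 CPM (SD, n = 3), or 4.37 on the log2 scale with an SE of 0.11 (adjusted p = 3.07e-13 by edgeR) and 20.7-fold in ratio.

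Igtp (chromosome 11, 58199556 to 58207591, plus strand, protein coding), which encodes Irgm3 of the endoplasmic reticulum and lipid droplets, had 2127, 1916 and 2246 counts with CRISPRa and 83, 65 and 85 without the guide. Its groups did not overlap, and its libraries within a group were close. The mean rose from 2.53 ± 0.297 to 63.2 ± 5.43 CPM (SD, n = 3), or 4.64 on the log2 scale with an SE of 0.12 (adjusted p = 3.22e-13 by edgeR) and 24.9-fold in ratio.

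The balance among the 3 regulators was compared as log2 ratios within each library, over 3 pairs. The ratio of Irgm1 to Igtp was 0.80 ± 0.026 with CRISPRa and 1.06 ± 0.23 without the guide (SD, n = 3, log2 scale; exact two-sided permutation p = 0.3, adjusted p = 0.7). That of Irgm2 to Igtp was 1.83 ± 0.046 against 1.95 ± 0.39 (exact permutation p = 0.7, adjusted p = 0.7). That of Irgm2 to Irgm1 was 1.02 ± 0.061 against 0.89 ± 0.58 (exact permutation p = 0.7, adjusted p = 0.7). None of the 3 differences passed the exact permutation test, which cannot go below p = 0.1 here and so does not show that the balance was alike. The Irgm1 to Igtp difference of -0.26 was slightly larger than the control SD, and the other differences were smaller than theirs. The control spread was wide for Irgm2 over Irgm1, at 1.44, 0.94 and 0.28 in no-sgRNA replicates 2, 3 and 4. The Irgm2 level in no-sgRNA replicate 2 was 12.8 CPM (95% exact Poisson interval 11.5 to 14.1) and in replicate 4 it was 7.65 CPM (6.71 to 8.67), so the controls differed beyond counting error. Reads carry no molecular identifiers, so these intervals and the floors below cover counting error only.

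The effectors were at or near 0 counts without the guide. Tgtp2 (chromosome 11, 49057194 to 49064206, minus strand, protein coding), which encodes an Irgb6 protein of parasite vacuoles, had 84, 103 and 180 counts with CRISPRa and 0 in every no-sgRNA library. Its CRISPRa level was 2.44, 3.16 and 5.55 CPM in replicates 2, 3 and 5, with replicate 5 well above the others. Set against 3 counts per library, Tgtp2 was at least 37.9-fold higher with CRISPRa (edgeR adjusted p = 4.42e-06), and at least 28.5-fold without replicate 5.

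Ifi47 (chromosome 11, 49076587 to 49096974, plus strand, protein coding), which encodes Irgd, had 60, 57 and 57 counts with CRISPRa and 0 in every no-sgRNA library. Its CRISPRa libraries lay at 1.74, 1.75 and 1.76 CPM, closer together than the counting interval of any of them, which for replicate 2 is 1.33 to 2.24 CPM. Ifi47 was at least 17.8-fold higher with CRISPRa (edgeR adjusted p = 2.71e-05).

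Iigp1 (chromosome 18, 60376027 to 60392634, plus strand, protein coding), which encodes Irga6, the best-studied effector against Toxoplasma vacuoles, had 63, 68 and 200 counts with CRISPRa. Without the guide it had 2, 0 and 0. The groups did not overlap, and CRISPRa replicate 5 stood well above replicates 2 and 3. The ratio of summed counts, scaled to library size, was 153 with a 95% exact counting interval of 41.9 to 1266 (edgeR adjusted p = 3.13e-05). The ratio was 89.7 without CRISPRa replicate 5 and 100.1 without no-sgRNA replicate 4, and without no-sgRNA replicate 2 all controls were at 0 and the gene was at least 34.3-fold higher.

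Gm12250 (chromosome 11, 58187739 to 58189012, plus strand), known as Irgb10, an effector against bacteria and parasites, had 26, 26 and 37 counts with CRISPRa and 6, 4 and 7 without the guide. It was the effector with counts in every library. The mean rose from 0.184 ± 0.0446 to 0.897 ± 0.212 CPM (SD, n = 3), or 2.26 on the log2 scale with an SE of 0.54 (adjusted p = 0.00883 by edgeR) and 4.77-fold in ratio. The counted row is a single exon of 1274 bases that GENCODE M21 annotates as a processed pseudogene, whereas RefSeq has a protein-coding gene from 58183843 to 58190198. Reads from the further RefSeq exons were not counted in this row.

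Tgtp1 (chromosome 11, 48985327 to 48994172, minus strand, protein coding), the near-copy of Tgtp2, had 0, 5 and 8 counts with CRISPRa and 0 in every no-sgRNA library. It did not pass the filter, and its groups overlapped because CRISPRa replicate 2 was at 0 (exact two-sided permutation p = 0.4). Its mean of 0.133 CPM with CRISPRa lay near the floor of 0.0871 to 0.101 CPM that 3 counts give in these libraries.

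Shared sequence bears most on this pair. Of the 50-base words in Tgtp2 transcripts, 85.8% also occur in Tgtp1, and of those in Tgtp1 79.4% occur in Tgtp2. Reads from the shared part cannot be assigned to 1 of the pair by sequence, and how the authors' counting treated them is not given in the sources used here. Both levels are therefore uncertain, and so is the 367 to 13 division of their CRISPRa counts. Summed to 1 row, the pair remained called (edgeR adjusted p = 4.43e-06). Igtp and Irgm2 share less, 11.8% of the Igtp words and 7.83% of the Irgm2 words occurring in another gene, mainly each in the other. Their annotated exons also overlap on the same strand, over 8.01% of Igtp and 4.39% of Irgm2, where a read can be ambiguous. For Ifi47, exons of Olfr56 and Gm12188 overlap 4.49% of its bases on the same strand and 4.29% on the opposite strand, and for Tgtp1 exons of Gm12185 overlap 6.96%. Irgm1 and Iigp1 share 0.379% and 1.69% of their words, and Gm12250 shares none.

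Levels were compared between genes after division by the deposited exon length, which counts every annotated exon and so understates genes with long non-coding isoforms. With CRISPRa the order on the CPM per kilobase scale was Irgm2 (60.8 ± 5.62), Igtp (31.3 ± 2.69), Irgm1 (19.0 ± 1.30), Tgtp2 (1.26 ± 0.555), Ifi47 (0.707 ± 0.00331), Gm12250 (0.704 ± 0.166), Iigp1 (0.577 ± 0.418) and Tgtp1 (0.0416 ± 0.0389), each with SD and n = 3. The 3 regulators were separated from one another and from every effector in all CRISPRa libraries. Ifi47, Gm12250 and Iigp1 could not be ordered, since their library ranges overlap, and that of Tgtp2 overlaps the ranges of Gm12250 and Iigp1. Without the guide the order was Irgm2 (2.70 ± 0.707), Igtp (1.25 ± 0.147), Irgm1 (0.914 ± 0.147) and Gm12250 (0.145 ± 0.0350), with the other members at or near 0. There the highest Irgm1 library, at 1.0821, stood just under the lowest Igtp library, at 1.0825, so the ranges of those neighbours all but touched.

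**Figure D3:**
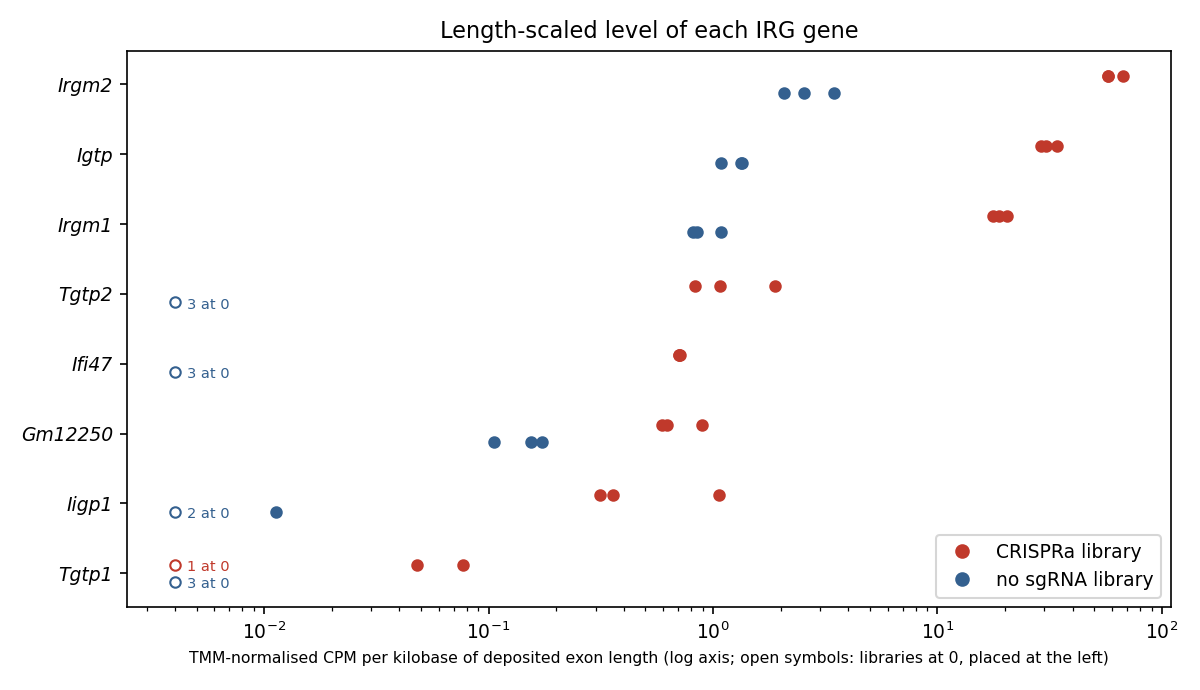
TMM-normalised CPM per kilobase of deposited exon length for each IRG gene, 1 point per library, on a log axis. Open symbols at the left give the number of libraries at 0. Irgm2, Igtp and Irgm1 lie above every effector in the CRISPRa libraries, and Tgtp1, Tgtp2 and Ifi47 have all no-sgRNA libraries at 0.

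Members differed in how far CRISPRa replicate 5 lay from the other 2 CRISPRa libraries. Its level over the mean of replicates 2 and 3 was 3.15 for Iigp1, 1.98 for Tgtp2 and 1.47 for Gm12250. For the regulators the same ratio was 1.11 to 1.17, and for Ifi47 it was 1.01. The Iigp1 counting intervals, 5.34 to 7.08 CPM in replicate 5 and at most 2.64 CPM in the others, do not overlap. Among the 1907 tested genes with a mean of 50 to 200 counts in the CRISPRa libraries, the median ratio was 0.960, and 20 genes had a ratio of at least 2. Some guanylate-binding proteins, related interferon-inducible GTPases that act on the same vacuoles, had high ratios too, 2.43 for Gbp10, 2.38 for Gbp4 and 2.36 for Gbp9, while Gbp2 was at 0.877. Of the transcription factors, Irf7 had a ratio of 1.24, Stat2 1.23 and Irf1 1.10. Replicate 5 is the CRISPRa library that stands apart across all genes, and the part of that difference in these values was not tested.

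**Figure D4:**
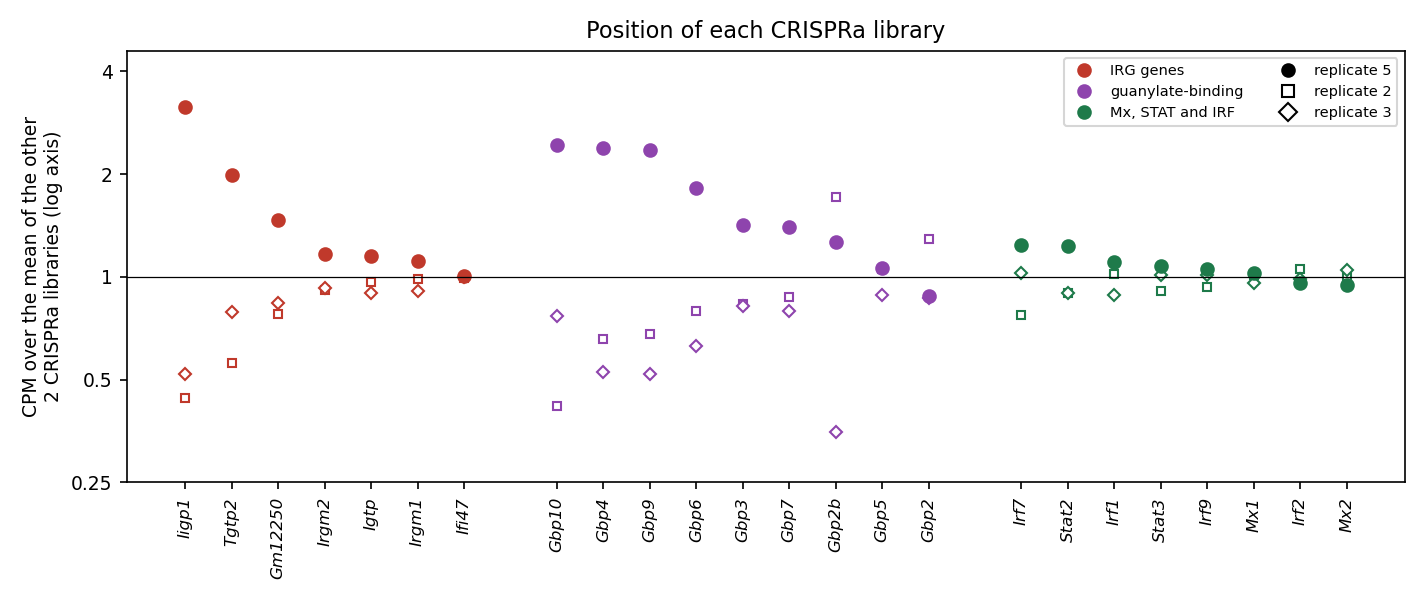
Level of each CRISPRa library over the mean of the other 2 CRISPRa libraries, for the tested IRG members, guanylate-binding proteins, Mx genes and STAT and IRF factors, on a log axis. Filled circles are replicate 5, open squares replicate 2 and open diamonds replicate 3. Replicate 5 stands at 3.15 for Iigp1, near 1 for Ifi47, and above 2 for Gbp10, Gbp4 and Gbp9.

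Further IRG-related genes were looked at next, from a list of 13 names of which 10 are in the table. On chromosome 11, 9930111J21Rik2 lies between Tgtp1 and Tgtp2. It had 16, 20 and 32 counts with CRISPRa and 0 in the controls, which puts it at least 7.02-fold higher (edgeR adjusted p = 0.000879). It could pass the filter only through the CRISPRa group, so its call is no separate support. Of all tested genes, 9.47% were called higher. Irgc1 had 9, 4 and 6 counts, Gm12185 had 10, 4 and 2, and Gm5431 had 6, 2 and 0, all against 0 without the guide, and these 3 genes did not pass the filter. Gm4841, F830016B08Rik and Gm12187 had 0 counts in all 6 libraries. Irgq, a distant relative, stood at 48.0 ± 5.4 CPM against 43.0 ± 3.55 CPM in the controls (SD, n = 3; log2 fold change 0.16, edgeR adjusted p = 0.281) and was the tested gene of this list that was not called.

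The inducing pathway was compared from the ligand inward. Of 21 interferon genes, 20 had 0 counts in all 6 libraries, Ifng and Ifnb1 among them, which allows up to 0.101 CPM in the shallowest library. The remaining ligand, Ifnz, had at most 8 counts. Of 9 receptor and kinase genes, 8 were tested, 1 was higher and none lower with CRISPRa, which is near the 9.47% of all tested genes called higher, and their median log2 fold change was 0.11 beside -0.0071 over all tested genes. Both chains of the interferon gamma receptor were expressed, Ifngr1 at 33.2 ± 3.38 against 35.3 ± 1.47 CPM and Ifngr2 at 56.5 ± 0.813 against 51.2 ± 4.57 CPM (SD, n = 3, CRISPRa against no sgRNA). Ifnar1, a chain of the type I receptor, stood at 81.5 ± 5.07 against 81.0 ± 1.91 CPM, and Ifnar2, its other chain, at 32.5 ± 0.842 against 36.1 ± 5.72 CPM. The gene that rose was Jak2, a kinase of the interferon gamma receptor, from 50.7 ± 3.31 to 71.3 ± 8.89 CPM (log2 fold change 0.49, SE 0.09, edgeR adjusted p = 0.00186).

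Most of the tested transcription factors on the list for IRG induction rose, and their binding to IRG promoters was not measured. Of 7 listed, 6 were tested, 5 rose and none fell, where 9.47% of all tested genes were called higher, and the median log2 fold change was 1.64. Irf7, the amplifier of type I interferon genes, rose from 2.05 ± 0.150 to 145 ± 22.8 CPM (SD, n = 3), or 6.15 on the log2 scale with an SE of 0.14 (adjusted p = 8.58e-14 by edgeR). Irf9 and Stat2, which act at ISRE, rose by log2 fold changes of 2.48 and 2.00. Irf1, an activator of interferon gamma targets, rose from 12.9 ± 0.330 to 31.4 ± 2.30 CPM, or 1.29 on the log2 scale with an SE of 0.10 (adjusted p = 3.98e-07 by edgeR). Irf2 was at 49.2 ± 1.53 against 48.7 ± 3.92 CPM (adjusted p = 0.919), and Irf8, of myeloid cells, had at most 2 counts in a library.

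MHC class II genes are a target of interferon gamma through the transactivator Ciita. H2-Aa, H2-Ab1 and H2-Eb1 had 0 counts in all 6 libraries, and Ciita had 2, 8 and 4 counts with CRISPRa and 7, 8 and 0 without the guide. Of the 3 tested genes of this list Cd74, the invariant chain, rose (log2 fold change 0.37, SE 0.11, edgeR adjusted p = 0.0311), and H2-DMa and H2-DMb1 were not called. Over all tested genes 9.47% were called higher, and 3 genes are too few to compare with that share. The Cd74 call held in 2 of 6 fits with 1 library left out and was lost without CRISPRa replicate 5 (edgeR adjusted p = 0.0978) and without any 1 of the no-sgRNA libraries.

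Of the other interferon-inducible GTPases, those with enough counts to be tested rose. Of 11 guanylate-binding proteins, 9 were tested and all 9 rose, but 8 of these had a mean under 10 counts in the no-sgRNA libraries and could pass the filter only through the CRISPRa group, so that count is no support. Gbp3 rose from 0.161 ± 0.141 to 59.4 ± 12.6 CPM and Gbp7 from 0.562 ± 0.196 to 33.3 ± 6.83 CPM (SD, n = 3). Gbp2 had 0 counts in every no-sgRNA library and was at least 24.4-fold higher, and Gbp2b had the smallest fitted difference, 3.83 on the log2 scale, with all of its 18 control counts in no-sgRNA replicate 4. Gbp8 and Gbp11 were not tested. Sequence shared among guanylate-binding proteins was not measured. The dynamin-like Mx1 and Mx2 rose by log2 fold changes of 4.42 (SE 0.12) and 3.25 (SE 0.10). Of the further genes on the list of Mx1 and Mx2, Gvin1, Gm8989 and Gm1966 had 0 counts in all 6 libraries and Gm4070 had at most 4 in a library.

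IRG effectors are loaded onto vacuoles with the help of the ATG8 conjugation system of autophagy. The list holds 16 genes of that system and of autophagy more widely, such as Sqstm1 and Ulk1. All 16 were tested, 5 rose and 1 fell, and the median log2 fold change was 0.09. Of all tested genes, 9.47% were called higher and 9.25% lower. Sqstm1, the p62 receptor that brings ubiquitin-marked vacuoles to autophagy, rose from 903 ± 34.7 to 1548 ± 202 CPM (log2 fold change 0.78, SE 0.08, edgeR adjusted p = 1.08e-05). The ATG8 genes Gabarapl1, Map1lc3b, Map1lc3a and Gabarapl2 rose by log2 fold changes of 0.55, 0.46, 0.43 and 0.25, while Gabarap stood at 105 ± 2.12 against 106 ± 11.2 CPM (edgeR adjusted p = 0.927). Ulk1, the initiating kinase, fell by 0.31 on the log2 scale (SE 0.08, edgeR adjusted p = 0.0147). The Ulk1 call was lost without CRISPRa replicate 5 (edgeR adjusted p = 0.0586) and without no-sgRNA replicate 4, and the Gabarapl2 call held only without no-sgRNA replicate 3 among the 6 fits with 1 library left out (largest edgeR adjusted p 0.135). The conjugation factors Atg3, Atg5, Atg7, Atg12 and Atg16l1 had log2 fold changes from 0.06 to 0.20, Atg10 had -0.12, and none of these was called. Among 6 ubiquitin ligases and adaptors of coated vacuoles, 1 rose, the antibody receptor Trim21, from 12.1 ± 0.279 to 42.0 ± 0.679 CPM (log2 fold change 1.80, SE 0.09, edgeR adjusted p = 1.36e-09). Traf6 stood at 50.2 ± 2.36 against 49.9 ± 0.535 CPM (SD, n = 3).

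**Figure D5:**
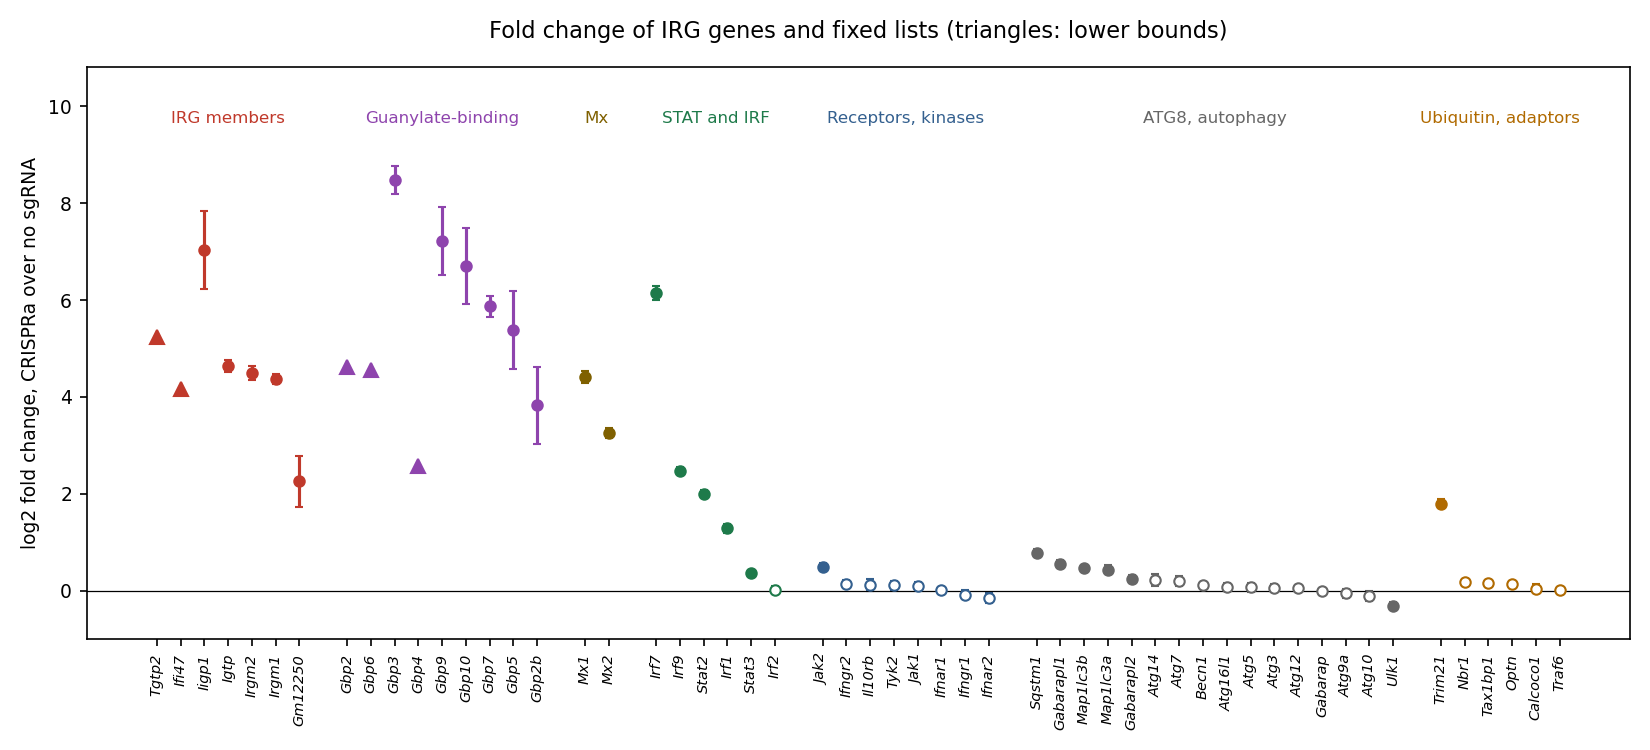
Fitted log2 fold change of CRISPRa over no sgRNA with its SE for tested genes of the fixed lists. Filled circles were called at an adjusted p under 0.05, open circles were not, and triangles are lower bounds for genes with 0 counts in every no-sgRNA library. IRG members, guanylate-binding proteins and Mx genes lie above 2, while receptors and most autophagy genes lie near 0.

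The genes with the library profile most like that of the tested members were found by the root-mean-square difference of centred log2 CPM over the 6 libraries. The nearest 5 outside the family were Cxcl10 at 0.19, Mx1 at 0.20, Isg15 at 0.24, Lgals9 at 0.25 and Slfn5 at 0.29. Of the members, Igtp lay at 0.15 from the family mean and Gm12250, with the smallest difference between groups, at 1.27. Iigp1 at 0.58 and Tgtp2 at 0.70 also lay farther from the family mean than these 5 genes. Cxcl10, a chemokine that attracts T cells, differed by 4.53 on the log2 scale (SE 0.15), and Lgals9, which encodes galectin 9, by 4.54 (SE 0.12). Since the genes were chosen for a like profile, differences near that of the family follow from the choice and are no separate support.

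The authors' deposited table, which covers all 8 samples and so shares these 6, lists all 8 members with a positive log2 fold change. In the authors' deposited table Irgm1 has 4.23 (SE 0.0899), Irgm2 4.45 (SE 0.10) and Igtp 4.62 (SE 0.108), beside 4.37, 4.50 and 4.64 from the 6 libraries. For Gm12250 the authors' deposited table gives 1.88 (SE 0.559) with no adjusted p, and for Tgtp1 it gives 4.78 (SE 1.73), again with no adjusted p. Their mean normalised counts there, 13.2 and 2.58, lie below 17.7, the lowest mean for which that table holds an adjusted p. Some list genes not called from the 6 libraries are past 0.05 there, as are 3951 of its 20581 genes. By the authors' DESeq2 adjusted p these are Nbr1 (0.00728), Atg7 (0.0121), Optn (0.0125), Jak1 (0.0126), Irgq (0.0298), H2-DMa (0.0379) and Tax1bp1 (0.0450). Their log2 fold changes there run from 0.16 to 0.32. The other tested list genes not called here are above 0.05 there or have no adjusted p.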

How the data were processed

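Poly(A)-enriched RNA of Neuro2a cells was sequenced. The authors deposited whole-number counts per gene for 6 libraries, made with STAR 2.5.1b and featureCounts on mm10, per the submitters' processing notes; the handling of strand and of multi-mapping reads is not given in the sources used here. The exon length in bases comes with the same table. A second table holds the authors' DESeq2 comparison over 8 samples. Per the file headers it gives a signal (the mean of normalised counts), a log2 fold change with SE, a Wald score, which was not used, and raw and adjusted p-values. Its direction is not stated. It was read as CRISPRa over no sgRNA because all 2583 non-member genes past 0.05 in both tables have the same sign.

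Samples were grouped by title. Of the 55367 genes, 53292 share a name and 52900 a span with GENCODE M21 (GRCm38). The test was edgeR 4.0.16 quasi-likelihood in R 4.3.3 on all genes passing filterByExpr, with TMM scaling and Benjamini-Hochberg adjustment over 15117 genes. CPM are TMM-normalised. SE is the log2 fold change over the square root of F. A fold against groups at 0 uses a floor of 3 counts per library and is a lower bound. In simulated data with 200 changed genes among 15117, edgeR called 94 of 100 genes changed 2-fold and 100 of 100 changed 16-fold. The changed genes were drawn from those with a mean of at least 1 CPM, and all genes had the same dispersion. The simulation therefore does not cover genes with controls at or near 0 counts, such as the effectors, or libraries that stand apart. Alternatives were RLE, upper-quartile and library-size scaling, other filters, DESeq2 1.42.0, limma-voom (version 3.58.1), leaving out single libraries (for the pathway lists added after seeing the data), a replicate block, Tgtp1 and Tgtp2 summed, and a threshold of 0.01. The members and lists were chosen with earlier results of these data known. Named genes are the 8 members, for each list the extremes and up to 4 more tested genes, and the 5 genes most like the members. Other genes were named after their values were seen. Some list members are not reported here and are left out of their lists' counts.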

Additional observations from a re-analysis of the deposited data

How the results depend on the processing

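The number of members called was 7 under every scaling, DESeq2, limma-voom, the absence of a filter, the summed Tgtp pair and the threshold of 0.01. It was 6 when at least 1 CPM was required in at least 3 libraries, where Gm12250 is not tested, and leaving out 1 library gave 7 each time. Tgtp2, Ifi47, Iigp1 and Gm12250 could pass the main filter only through the CRISPRa group, so a steady number of called members is no separate support. The number of called genes over all tested was 2788 to 2830 under the other scalings, 3093 under DESeq2 and 2865 under limma-voom. It was 3124 without a filter, 2887 with the CPM filter, and 1417 at a threshold of 0.01, where the threshold is the cause. Leaving out 1 library gave 1987 to 2518, against 2829. With the replicate block on the 4 libraries numbered 2 and 3, 6 members and 3170 genes (20.7% of those tested) were called, and Gm12250 was lost at an adjusted p of 0.0501 (range over all its alternatives 0.00336 to 0.0501). The differences of replicate 2 minus replicate 3 in the CRISPRa and no-sgRNA groups had a correlation of 0.00448 across 15117 genes. The shared number thus showed no pairing of replicates. That correlation cannot show a batch common to these 4 libraries, which was not tested. Without the block the same libraries gave 7 members and 2830 genes, with Gm12250 at 0.0399. On these 4 libraries, with the block and without it alike, the called genes were 2 instead of 1 among receptors and kinases and among ubiquitin ligases and adaptors, and 0 instead of 1 among MHC class II genes. DESeq2 called 8 of the 9 guanylate-binding proteins, most of which could pass the filter only through the CRISPRa group, so that count is no support. For these lists, the unblocked fit and leaving out 1 library were added after the data were seen, and without no-sgRNA replicate 4 the called ubiquitin ligases and adaptors were 2. No member changed direction in an alternative that tested it. Depth limits Tgtp1, which has 13 counts in all: with no filter its edgeR adjusted p was 0.186.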
